A study of Mus musculus with 7 samples.

Results

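NF-kB is a family of paired transcription factors, and the genes described here encode its 5 subunits (Rela, Rel, Relb, Nfkb1 and Nfkb2) together with 5 proteins that hold it back or redirect it (Nfkbia, Nfkbie, Nfkbiz, Tnfaip3 and Bcl3). A table row was taken for each gene by its first symbol or an alias. All 10 genes were found among the 24537 rows, each by its first symbol, and all 10 were among the 13028 genes tested, those with at least 1 FPKM in at least 2 libraries. FPKM is the number of sequenced fragments scaled to transcript length and library depth, so levels of different genes can be set beside each other.

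In resting cells NF-kB dimers sit in the cytoplasm, bound by inhibitor proteins of the I-kappa-B family. Receptors such as TLRs, the IL-1 receptor and TNF receptors activate a kinase that marks the inhibitor for destruction, and the dimers then enter the nucleus. Among the genes they switch on are the inhibitors themselves, so the response limits itself. A slower, noncanonical route processes the Nfkb2 precursor and works mainly through Relb. In microglia, the resident macrophages of the brain, the pathway is best known for driving inflammatory cytokines and chemokines.

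RNA was sequenced from microglia sorted as CD45-intermediate, CX3CR1-positive cells out of glioma-bearing brains of C57BL/6 mice at day 35 after implantation of 005 cells, which model glioblastoma. The control group received IgG (2 libraries). A second group received an antibody to CTLA4, a checkpoint receptor on T cells (2 libraries). The remaining group received that antibody plus depletion of CD4 T cells (3 libraries), so both antibody groups share anti-CTLA4. The labels give neither age nor sex and do not say whether a library came from 1 animal or several. The p-values therefore reflect library-to-library spread, part of which may be technical. The comparisons ask how checkpoint blockade, and blockade without CD4 T cells, stood against control.

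Some libraries stood apart or went against their labels. Sheet numbers 29 and 30 stand in the column names for anti-CTLA4, whereas the sample descriptions have 10 and 11, and the command recorded in the table header, which lists 40 libraries, gives 29 and 30 to interferon-gamma receptor knockouts. The pair is therefore written as labelled anti-CTLA4, and every direction drawn from it depends on that name. Ifngr1, which encodes the receptor's ligand-binding chain, read 204 and 271 FPKM in them against 107 to 143 FPKM in the other 5 libraries. Only levels over the whole gene were at hand, so whether the gene was intact in them was not tested. CD4-depleted replicate 1 correlated with the other CD4-depleted libraries across genes at r = 0.918 and 0.935, whereas those 2 correlated at 0.975. It also held the highest summed level of 15 monocyte markers, 3546 FPKM against 164 to 1090 in the other 6 libraries, and of 13 neutrophil markers, 608 against 36.7 to 185. The Y-linked gene Ddx3y was higher in every CD4-depleted library (2.52 to 4.88 FPKM) than in the others (0.149 to 1.21 FPKM). The labels give no sex, and a possible difference in sex between groups cannot be told apart from depletion. Microglia markers were high throughout (P2ry12 147 to 1088 FPKM, Tmem119 243 to 1001 FPKM), while the neutrophil marker Ly6g stayed at or below 0.266. Low values were whole multiples of 1 read and implied 84100000 to 108000000 reads per library, and the least covered member value, Rel in control IgG replicate 1, rested on an implied 387 reads.

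The subunits and inhibitors are known to be partly under their own control, so the promoters were searched for the kappa B consensus, the 10-base element that NF-kB dimers bind, on both strands. RefSeq promoter sequence (GRCm38.p6, 250 bases before to 50 after each start) was at hand for 7 of the 10 genes, Nfkb1, Relb and Nfkbiz being the others. At least 1 match lay in a promoter of 6 of these 7 genes, all but Rela, while 5.14% of the 27025 genes in the table held one. The 150 bases before the start are shown for 5 genes with a match there and for Rela, on each gene's own strand, with matching stretches in capitals. They are shown because the matches differ in number and in distance from the start.
Nfkbia (chr12:55492648-55492797, minus strand): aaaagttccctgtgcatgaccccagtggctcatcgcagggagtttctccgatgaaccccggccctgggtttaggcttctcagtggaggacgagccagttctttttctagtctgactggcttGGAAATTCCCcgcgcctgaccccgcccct
Nfkb2 (chr19:46304587-46304736, plus strand): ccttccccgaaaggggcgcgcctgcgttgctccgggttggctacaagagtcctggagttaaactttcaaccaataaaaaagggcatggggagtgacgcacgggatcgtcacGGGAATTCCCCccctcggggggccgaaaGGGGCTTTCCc
Tnfaip3 (chr10:19015411-19015560, minus strand): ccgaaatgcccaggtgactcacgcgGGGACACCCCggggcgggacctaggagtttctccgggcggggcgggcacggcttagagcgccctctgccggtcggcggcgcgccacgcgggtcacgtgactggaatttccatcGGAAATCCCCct
Rel (chr11:23770970-23771119, minus strand): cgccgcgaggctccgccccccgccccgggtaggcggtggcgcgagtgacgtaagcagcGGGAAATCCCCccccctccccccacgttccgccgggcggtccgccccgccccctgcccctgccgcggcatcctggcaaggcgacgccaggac
Nfkbie (chr17:45555550-45555699, plus strand): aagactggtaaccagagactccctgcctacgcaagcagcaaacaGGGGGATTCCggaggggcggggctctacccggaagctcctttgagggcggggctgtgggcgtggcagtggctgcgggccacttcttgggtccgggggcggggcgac
Rela (chr19:5637391-5637540, plus strand): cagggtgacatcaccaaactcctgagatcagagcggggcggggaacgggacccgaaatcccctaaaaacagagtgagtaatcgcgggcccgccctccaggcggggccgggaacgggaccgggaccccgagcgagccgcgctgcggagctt

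In Nfkbia the stretch GGAAATTCCC began 29 bases before the start. The most upstream Nfkb2 promoter held GGGAATTCCCC 39 bases and GGGGCTTTCC 11 bases before its start. The deposited Nfkb2 row begins at the most downstream promoter, which is not shown and held GGGACTTTCC 225 bases before its start. The promoter between them held GGAATGTCCC 236 bases before its start and that same GGGACTTTCC just after it. Tnfaip3 held GGAAATCCCC at 12 and GGGACACCCC at 125 bases, in the promoter of its more upstream start, whereas the promoter at the start of the deposited row held none. Rel held GGGAAATCCCC at 92 bases and Nfkbie GGGGGATTCC at 106 bases. In Bcl3 the match GGGAAGTCCC lay just after the start. The longer stretches hold overlapping matches on one or both strands. Of all 32851 promoters, 4.51% held a consensus match and 0.941% held at least 2. Of a textbook list of NF-kB target genes 14 of 34 with promoter sequence held a consensus match, as did 5 of 15 other inhibitors, 3 of 18 ligands and receptors and 3 of 23 adaptors and kinases. Among the other lists it was 3 of 18 immediate early genes, 2 of 8 endothelial and mural markers, 1 of 18 microglia markers, 0 of 12 monocyte markers and 0 of 13 neutrophil markers.

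**Figure D1:**
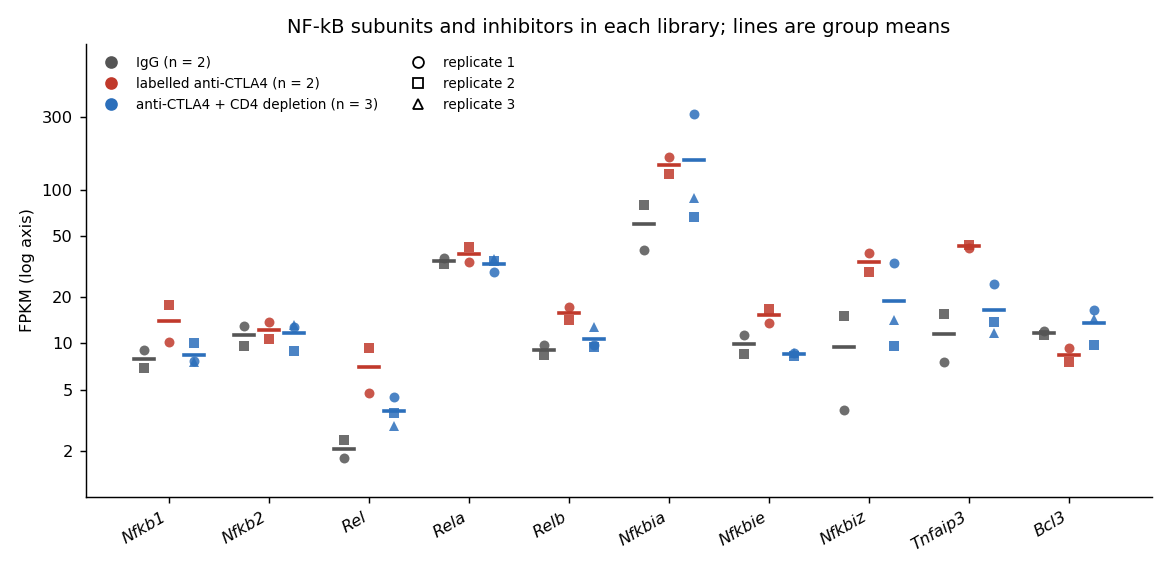
FPKM (log axis) of the 10 genes in each of the 7 libraries, with 1 point per library, coloured by group, and a bar at the group mean. Rela varied least, while Nfkbiz, Nfkbia, Tnfaip3 and Rel varied most.

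Rela, which encodes the main activating subunit, was the steadiest of the 10 genes on the deposited scale. It read 35.9 and 33.2 FPKM under IgG, 33.9 and 42.4 in the libraries labelled anti-CTLA4, and 29.3, 34.5 and 35.6 with CD4 depletion. The groups overlapped, and the highest library was 1.45 times the lowest. The difference between labelled anti-CTLA4 and IgG was 0.13 on the log2(FPKM + 1) scale (SE 0.18, limma adjusted p = 0.572). After median-of-ratios scaling between libraries it was 0.50 (limma adjusted p = 0.0512). Under that scaling Rela was called lower with CD4 depletion against labelled anti-CTLA4 (-0.50, limma adjusted p = 0.0459). When libraries were scaled to their microglia markers the 2 differences were -0.79 and 0.72, with no call. Rela had the highest level of the 5 subunits in every library.

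Rel, which encodes c-Rel, an activating subunit best known in lymphoid and myeloid cells, was the least abundant member by group mean in all 3 groups. It read 1.78 and 2.33 FPKM under IgG, 4.73 and 9.36 in the libraries labelled anti-CTLA4, and 4.51, 3.54 and 2.90 with CD4 depletion. No group overlapped another, with IgG at the bottom and labelled anti-CTLA4 at the top. Rel rose in the libraries labelled anti-CTLA4 by 1.34 log2 units (SE 0.31, limma adjusted p = 0.0178), and by 0.57 with no call when libraries were scaled to their microglia markers. With CD4 depletion it differed from labelled anti-CTLA4 by -0.74 (SE 0.29, limma adjusted p = 0.0847) and from IgG by 0.60 (SE 0.29, limma adjusted p = 0.710). The former was -1.17 without labelled anti-CTLA4 replicate 1 and -0.32 without replicate 2.

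Nfkb1 encodes the p105 precursor, from which the p50 subunit is cut. Its levels were 9.03 and 6.89 FPKM under IgG, 10.26 and 17.9 in the libraries labelled anti-CTLA4, and 7.63, 10.14 and 7.58 with CD4 depletion. Both libraries labelled anti-CTLA4 lay above all others, replicate 1 by little (10.26 against 10.14 in CD4-depleted replicate 2). Neither difference passed the test (0.71 against IgG, SE 0.28, limma adjusted p = 0.0804, and -0.64 for CD4 depletion against labelled anti-CTLA4, SE 0.26, limma adjusted p = 0.0957). Both turned on the libraries labelled anti-CTLA4. Without replicate 1 of that group they were 1.09 and -1.01, and without replicate 2 they were 0.34 and -0.26.

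Relb and Nfkb2 belong to the noncanonical route. Relb, its activating subunit, read 9.79 and 8.41 FPKM under IgG, 17.2 and 14.3 in the libraries labelled anti-CTLA4, and 9.71, 9.49 and 12.8 with CD4 depletion. The libraries labelled anti-CTLA4 were above all others. Relb rose against IgG by 0.73 log2 units (SE 0.20, limma adjusted p = 0.0275), a direction that flipped to -0.14 under scaling to the microglia markers. With CD4 depletion Relb differed from labelled anti-CTLA4 by -0.53 (SE 0.18, limma adjusted p = 0.0629). Nfkb2, which encodes the p100 precursor and its p52 product, read 13.03 and 9.58, then 13.9 and 10.7, then 12.9, 8.91 and 13.3 FPKM in the same order of groups. Its groups overlapped in every comparison, and the difference between labelled anti-CTLA4 and IgG was 0.12 (SE 0.25, limma adjusted p = 0.729). Counting did not use strand, and in GENCODE vM21 Nfkb2 shares 531 exon bases with an antisense transcript and 299 with Psd.

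The make-up of the subunit transcripts was taken within each library. Rela supplied 51.7 to 54.9% of the summed FPKM of the 5 subunits under IgG, 42.3 to 44.8% in the libraries labelled anti-CTLA4 and 45.8 to 51.8% with CD4 depletion. Rel supplied 2.56 to 3.86%, 5.92 to 9.89% and 4.02 to 7.04% in that order. These shares do not depend on how libraries are scaled to each other. No test was made on them.

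Nfkbia, the I-kappa-B alpha inhibitor and a classic early target of NF-kB, was the most abundant of the 10 genes by group mean in all 3 groups. It read 41.0 and 80.3 FPKM under IgG, 165 and 127 in the libraries labelled anti-CTLA4, and 315, 66.6 and 88.9 with CD4 depletion. The highest value of all was CD4-depleted replicate 1, the library with the high monocyte and neutrophil markers, and their part in it was not tested. The difference between labelled anti-CTLA4 and IgG was 1.32 log2 units (SE 0.69, limma adjusted p = 0.160), with the libraries apart. It was 0.84 without control IgG replicate 1, and it passed without CD4-depleted replicate 1 (limma adjusted p = 0.0157). Without CD4-depleted replicate 2 or 3 it did not pass (limma adjusted p = 0.131 and 0.184). With CD4 depletion the difference from labelled anti-CTLA4 was -0.23 (SE 0.63, limma adjusted p = 0.795), -0.90 without CD4-depleted replicate 1 and 0.21 without CD4-depleted replicate 2. The span of the deposited row of the microRNA gene Mir1198 overlaps Nfkbia by 1898 bases on the other strand. That row has a transcript length of only 58 bases. In GENCODE vM21 Nfkbia shares 0 exon bases with other genes.

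Nfkbie, the I-kappa-B epsilon inhibitor, had its lowest spread with CD4 depletion. It read 11.3 and 8.52 FPKM under IgG, 13.6 and 16.9 in the libraries labelled anti-CTLA4, and 8.70, 8.27 and 8.72 with CD4 depletion. The libraries labelled anti-CTLA4 were above all others. Nfkbie rose against IgG by 0.58 log2 units (SE 0.19, limma adjusted p = 0.0455), which flipped to -0.30 under scaling to the microglia markers. With CD4 depletion it fell against labelled anti-CTLA4 by 0.76 log2 units (SE 0.17, limma adjusted p = 0.0211), which flipped to 0.11 under that scaling.

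Tnfaip3, which encodes A20, a ubiquitin-editing enzyme that shuts off signalling upstream of the kinase, was high and even in the libraries labelled anti-CTLA4. It read 7.53 and 15.7 FPKM under IgG, 42.2 and 43.9 in the libraries labelled anti-CTLA4, and 24.5, 13.8 and 11.7 with CD4 depletion. The group means were 11.6 ± 5.76 (SD, n = 2), 43.1 ± 1.21 (SD, n = 2) and 16.7 ± 6.84 FPKM (SD, n = 3). Both libraries labelled anti-CTLA4 lay well above all 5 others, whereas IgG and CD4 depletion overlapped. Tnfaip3 rose against IgG by 1.88 log2 units (SE 0.40, limma adjusted p = 0.0136) and stayed higher, by 0.97 with no call, under scaling to the microglia markers. With CD4 depletion it fell against labelled anti-CTLA4 by 1.39 log2 units (SE 0.36, limma adjusted p = 0.0302), and by 1.68 without CD4-depleted replicate 1 (limma adjusted p = 0.00660). The call was lost without CD4-depleted replicate 2 (-1.29, limma adjusted p = 0.0825) or 3 (-1.18, limma adjusted p = 0.0844). It was also lost without a filter on low values (limma adjusted p = 0.0648) and with the replicate number as a block (limma adjusted p = 0.128). Under scaling to the microglia markers that difference was -0.47, with no call (limma adjusted p = 0.420).

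The last pair encodes nuclear I-kappa-B proteins, which act on chromatin-bound NF-kB rather than holding it in the cytoplasm. Nfkbiz, whose product helps switch on a secondary set of inflammatory genes, read 3.70 and 15.2 FPKM under IgG, 38.8 and 29.2 in the libraries labelled anti-CTLA4, and 33.3, 9.58 and 14.2 with CD4 depletion. It had the widest range of the 10 genes, with the highest library 10.5 times the lowest. The IgG libraries were apart from those labelled anti-CTLA4, but the difference of 1.99 log2 units narrowly missed the threshold (SE 0.67, limma adjusted p = 0.0508). It was 1.10 without control IgG replicate 1 and 2.88 without control IgG replicate 2. Without labelled anti-CTLA4 replicate 1 or 2 it was 1.79 and 2.19. Leaving out CD4-depleted replicate 1, 2 or 3 gave limma adjusted p = 0.0195, 0.0506 and 0.0740. With CD4 depletion the difference from labelled anti-CTLA4 was -0.97 (SE 0.61, limma adjusted p = 0.250) with overlapping libraries, -1.45 without CD4-depleted replicate 1 and -0.60 without CD4-depleted replicate 2.

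Bcl3, a cofactor of p50 and p52 dimers, was the only one of the 10 genes to read lowest in the libraries labelled anti-CTLA4. It read 12.05 and 11.3 FPKM under IgG, 9.27 and 7.56 in the libraries labelled anti-CTLA4, and 16.5, 9.74 and 14.4 with CD4 depletion. The libraries labelled anti-CTLA4 were below all others. Neither difference passed the test (-0.43 against IgG, SE 0.25, limma adjusted p = 0.196, and 0.61 for CD4 depletion against labelled anti-CTLA4, SE 0.23, limma adjusted p = 0.0784). Bcl3 shares 161 exon bases with an antisense transcript in GENCODE vM21.

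**Figure D2:**
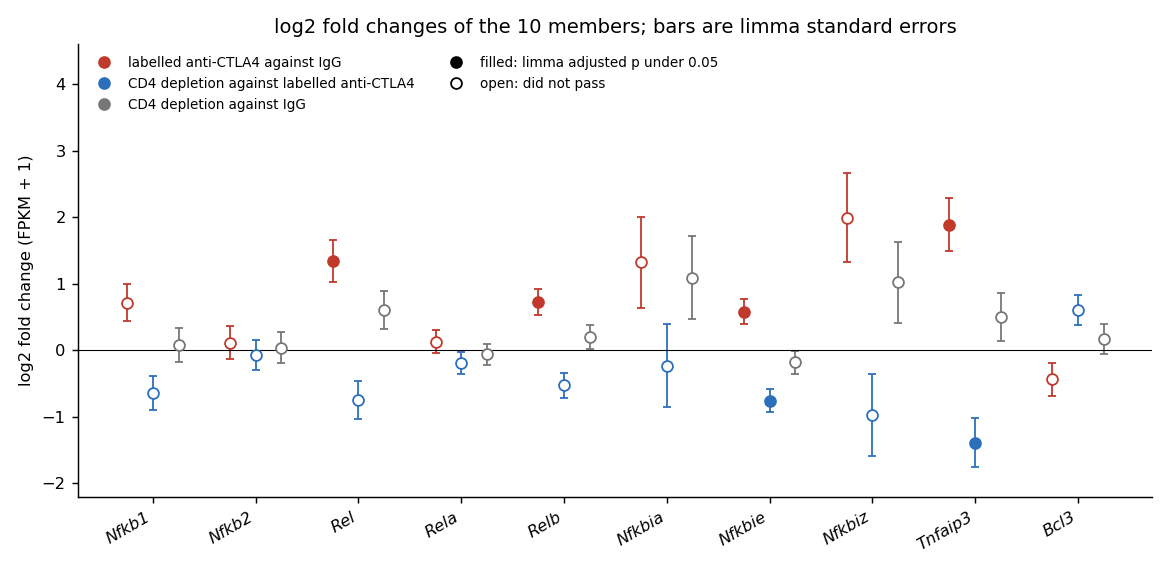
Log2(FPKM + 1) differences of the 10 genes (points, with SE bars) in the 3 comparisons, filled where the limma adjusted p was under 0.05. Rel, Relb, Nfkbie and Tnfaip3 rose in the libraries labelled anti-CTLA4 against IgG on the deposited scale. With libraries scaled to their microglia markers none of these 4 passed and Relb and Nfkbie changed sign, and none of the 10 passed for CD4 depletion against IgG.

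In the libraries labelled anti-CTLA4 against IgG, 4 of the 10 genes rose (Rel, Relb, Nfkbie and Tnfaip3, all of which lost the call under scaling to the microglia markers, where Relb and Nfkbie also flipped direction) and 0 fell. Of all tested genes 9.29% were called higher and 28.8% lower, 38.0% in all. At an unadjusted p under 0.05, 6 of the 10 passed in limma, beside 50.2% of all tested genes. The libraries did not overlap for 8 of the 10, with 7 higher and only Bcl3 lower, beside 22.8% of all tested genes higher and 54.1% lower (76.9% in all). The median difference of the 10 genes was 0.72, against -0.31 over all tested genes. Leaving out a library of either group leaves 1 in that group. A call lost there can come from lost precision, so for single genes only the differences are given for such fits. Relb differed by 0.83 without control IgG replicate 1 and by 0.63 without replicate 2, and Nfkbie by 0.76 and 0.39. Without labelled anti-CTLA4 replicate 1 Relb and Nfkbie differed by 0.60 and 0.72, and without replicate 2 by 0.86 and 0.43. Without CD4-depleted replicate 2 or 3 the call of Nfkbie was lost (limma adjusted p = 0.0649 and 0.0727). That call was also lost without a filter on low values (limma adjusted p = 0.0612). The same held with only the 2 groups compared in the fit (limma adjusted p = 0.0677) and with the replicate number as a block (limma adjusted p = 0.110). Tnfaip3 differed by 1.40 log2 units without control IgG replicate 1, by 1.86 without labelled anti-CTLA4 replicate 2 and by 2.37 without control IgG replicate 2, and Rel by 1.21, 0.91 and 1.47.

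For CD4 depletion against labelled anti-CTLA4, 2 of the 10 genes fell (Nfkbie and Tnfaip3, both of which lost the call under scaling to the microglia markers, where Nfkbie also flipped direction) and 0 rose, while 6.59% of all tested genes were called lower and 22.8% higher, 29.4% in all. At an unadjusted p under 0.05, 6 of the 10 passed in limma, beside 45.3% of all tested genes. The libraries did not overlap for 5 genes that were lower (Nfkb1, Rel, Relb, Nfkbie and Tnfaip3) and for Bcl3, which was higher, beside 15.7% of all tested genes lower and 44.7% higher (60.5% in all). The median difference was -0.58, against 0.27 over all tested genes. This comparison shares its libraries labelled anti-CTLA4 with the one above, so opposite signs are not separate evidence. Without CD4-depleted replicate 3, 0 of the 10 were called, and without CD4-depleted replicate 2 only Bcl3 was, as higher (0.81). Leaving out a library labelled anti-CTLA4 leaves 1 in that group, so only differences are given. Without replicate 1 of that group they were -1.41 for Tnfaip3, -0.90 for Nfkbie, -1.01 for Nfkb1 and -1.17 for Rel. Without replicate 2 they were -1.36, -0.61, -0.26 and -0.32.

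For CD4 depletion against IgG, limma called 0 of the 10 genes and 0 of all 13028 (0%). At an unadjusted p under 0.05, 851 genes passed (6.53%), none of them among the 10. Only Rel had libraries that did not overlap, in the higher direction, beside 11.0% of all tested genes higher and 16.2% lower (27.2% in all). The differences ran from -0.18 for Nfkbie to 1.09 for Nfkbia, whose SE was 0.63, with limma adjusted p = 0.710 for Nfkbia. Without CD4-depleted replicate 1 those of Nfkbia and Nfkbiz were 0.42 and 0.54, where they had been 1.09 and 1.02. Control IgG replicates moved them as well. Without replicate 1 of that group Nfkbia, Nfkbiz and Tnfaip3 differed by 0.61, 0.13 and 0.014, and without replicate 2 by 1.57, 1.91 and 0.98, where Tnfaip3 had been 0.50.

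**Figure D3:**
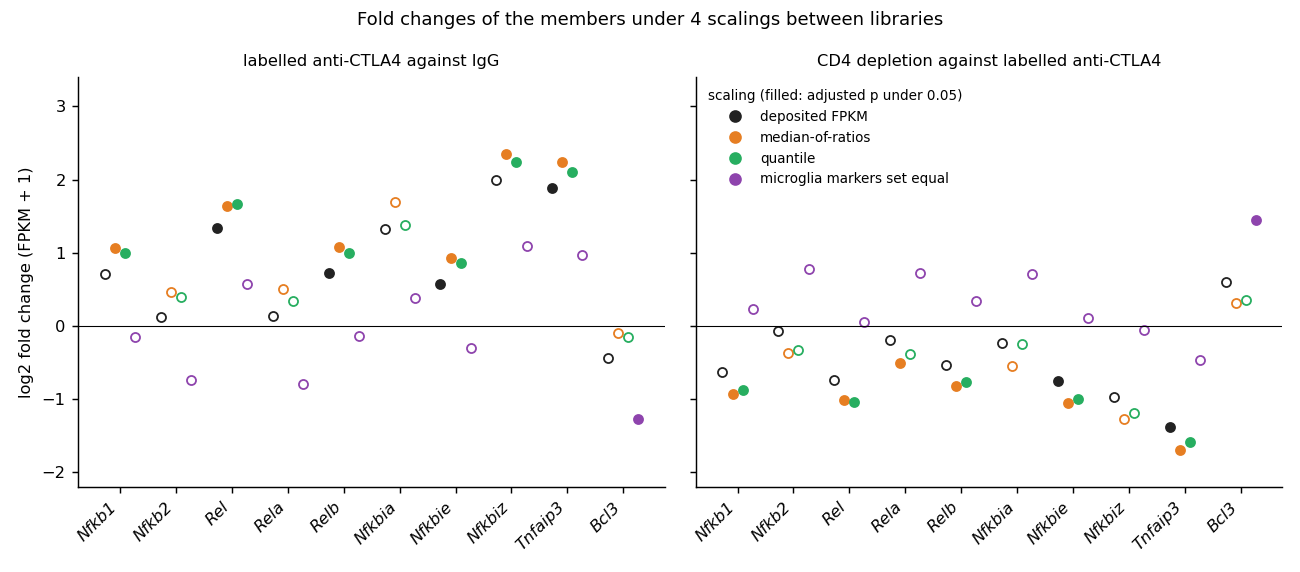
Log2(FPKM + 1) differences of the 10 genes under 4 ways of scaling libraries to each other, filled where the limma adjusted p was under 0.05, for labelled anti-CTLA4 against IgG (left) and CD4 depletion against labelled anti-CTLA4 (right). Scaling to the microglia markers moved every gene down on the left and up on the right, and left Bcl3 as the only call.

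The number of genes called changed with how libraries were set equal. Median-of-ratios scaling gave 6 higher and 0 lower in the libraries labelled anti-CTLA4 against IgG, and 0 higher and 6 lower for CD4 depletion against them. The 25 microglia markers themselves had their highest sums in the libraries labelled anti-CTLA4, with levels of 32052 and 41473 FPKM against 17190 to 18542 under IgG and 14015 to 20437 with CD4 depletion. Their median difference from IgG was 0.85, beside 0.72 for the 10 genes. Setting those markers equal left 0 higher and 1 lower, Bcl3 at -1.27, with a median of -0.15 for the 10 genes and -1.02 for all tested genes. It left Bcl3 as the only gene called with CD4 depletion too, at 1.44. Of all tested genes, 1210 were called higher and 3747 lower against IgG as deposited, 2180 and 2041 after median-of-ratios scaling, 1928 and 2081 after quantile normalization, and 67 and 7842 with the microglia markers set equal. The same splits for CD4 depletion against labelled anti-CTLA4 were 2969 and 858, 1470 and 1684, 1452 and 1460, and 8419 and 96. Summed levels of markers of tumour or oligodendrocyte precursor cells were 824 and 1158 FPKM under IgG, 47.4 and 115 in the libraries labelled anti-CTLA4, and 218 to 705 with CD4 depletion. Endothelial and mural markers summed to 29.4 and 38.3 FPKM, 225 and 416, and 62.8 to 184 in the same order of groups, astrocyte markers to 202 and 272, 74.0 and 111, and 182 to 305, and T and NK cell markers to 7.11 and 10.02, 11.8 and 18.4, and 7.45 to 12.1. In bulk RNA, fewer cells of a type and less RNA per cell cannot be told apart, and the part of these other cells in the results was not tested.

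**Figure D4:**
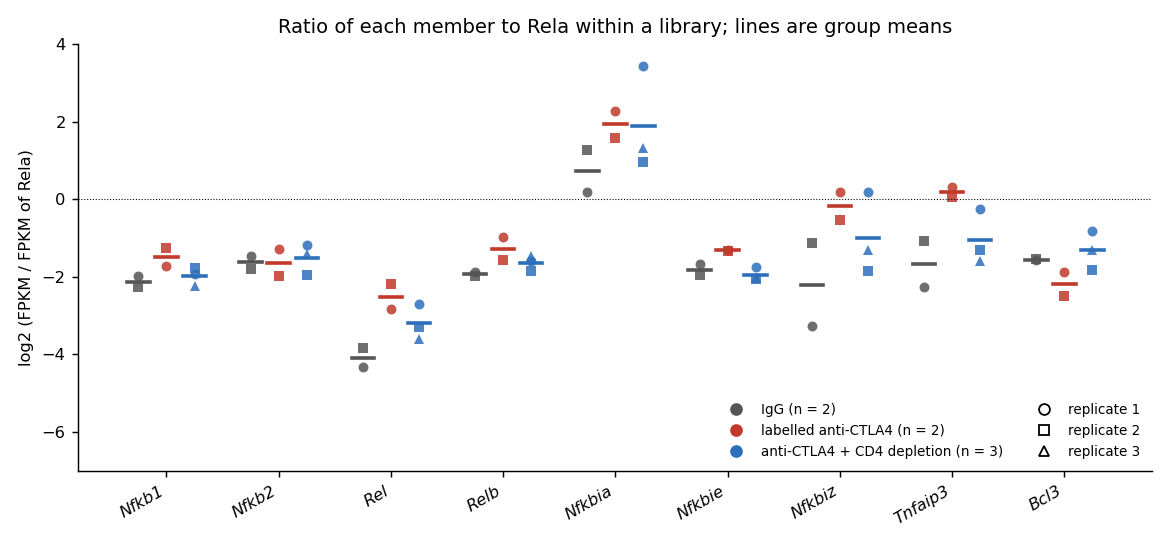
Log2 ratio of each gene's FPKM to that of Rela in the same library, with 1 point per library, coloured by group, a bar at the group mean and a dotted line where the levels are equal. Tnfaip3 exceeded Rela only in the 2 libraries labelled anti-CTLA4, at ratios of 1.04 and 1.25.

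Ratios taken within a library are free of scaling. Tnfaip3 stood at 0.210 and 0.473 of Rela under IgG, at 1.04 and 1.25 in the libraries labelled anti-CTLA4 and at 0.328 to 0.834 with CD4 depletion. Rel stood at 0.0495 and 0.0702, at 0.140 and 0.221, and at 0.0815 to 0.154 of Rela in that order. The libraries labelled anti-CTLA4 thus lay above IgG for both ratios, and above CD4 depletion only for Tnfaip3. Nfkbie was at 0.257 and 0.315, at 0.398 and 0.403, and at 0.240 to 0.297 of Rela, again apart from both other groups. Nfkb1, Relb, Nfkbia and Nfkbiz were likewise higher relative to Rela in the libraries labelled anti-CTLA4 than under IgG, and Bcl3 was lower. Nfkb2 overlapped, at 0.289 to 0.363 and 0.253 to 0.410. On the deposited scale the levels of 76.9% of all tested genes did not overlap between labelled anti-CTLA4 and IgG. The same share for ratios to Rela was not taken. Nfkbia ranged from 1.93 to 10.7 times Rela with CD4 depletion, the top value being replicate 1. A ratio shows unequal change of a pair of genes and does not tell which moved.

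In order of level, Nfkbia and then Rela led under IgG, both apart from the rest, and the next 7 genes, from Bcl3 (11.7 FPKM) down to Nfkb1 (7.96 FPKM), overlapped their neighbours. Only Rel lay apart below them. In the libraries labelled anti-CTLA4 Tnfaip3 stood just above Rela and Nfkbiz just below it, both overlapping it, while Bcl3 stood just above Rel, with which it overlapped. With CD4 depletion the order was Nfkbia followed by Rela, and Nfkbiz and Tnfaip3 overlapped their neighbours. Each position is a description of group means.

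**Figure D5:**
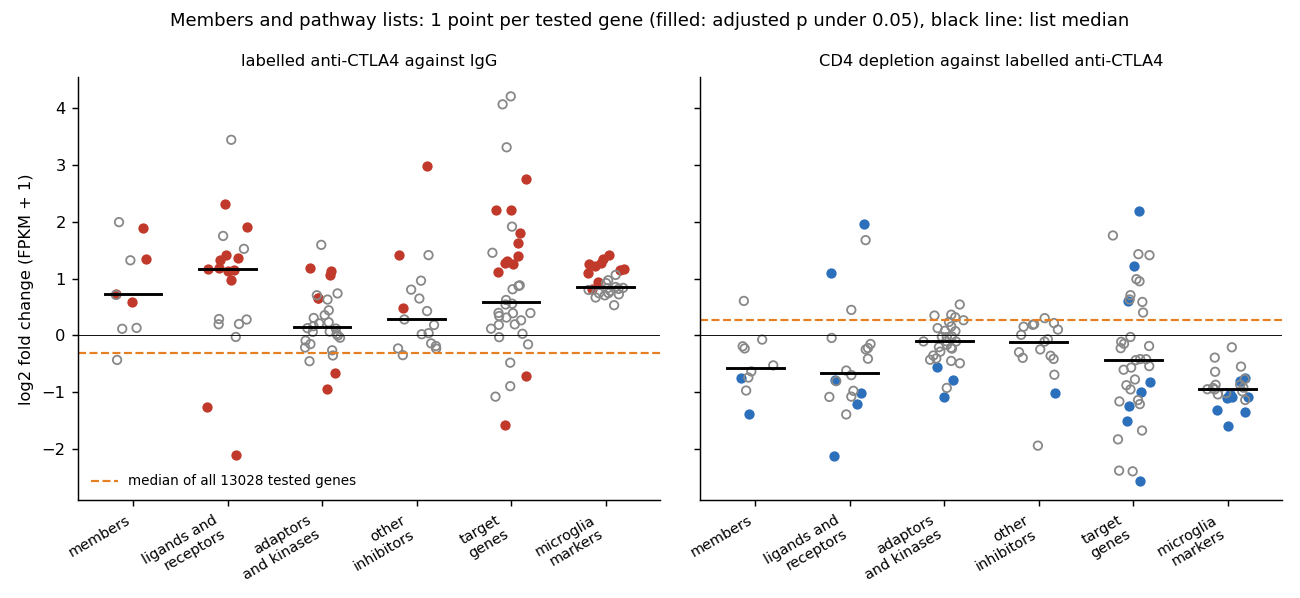
Log2(FPKM + 1) differences of the 10 subunits and inhibitors (members), of 4 NF-kB pathway lists and of the microglia markers, with 1 point per tested gene, filled where the limma adjusted p was under 0.05, black lines at list medians and a dashed line at the median of all tested genes. The list medians lay above that of all genes for labelled anti-CTLA4 against IgG and below it for CD4 depletion against labelled anti-CTLA4, on the deposited scale. The members and 3 of the 4 pathway lists changed the sign of their median against IgG when the microglia markers were set equal. The median of all tested genes was then -1.02.

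The rest of the pathway was read from 4 textbook lists, whose counts stand beside 9.29% of all tested genes higher and 28.8% lower against IgG, and 22.8% higher and 6.59% lower for CD4 depletion against labelled anti-CTLA4. Of 20 tested ligands and receptors 10 rose and 2 fell in the libraries labelled anti-CTLA4 against IgG, with a median of 1.16. Tlr7, an endosomal sensor of RNA, read 17.6 and 16.2 FPKM under IgG and 39.5 and 48.6 in the libraries labelled anti-CTLA4, a rise of 1.32 (SE 0.21). Tnfrsf1b, the second TNF receptor, rose by 1.15 (SE 0.22), Tnfrsf11a, the receptor RANK, by 1.17 (SE 0.24), and Tnfsf13b, the cytokine BAFF, by 1.37 (SE 0.28). Those that fell were Tnfrsf12a, the TWEAK receptor, at -2.11 (SE 0.41), and Il1rap, the IL-1 co-receptor, at -1.26 (SE 0.27). With the microglia markers set equal the counts of this list became 0 higher and 2 lower with a median of 0.32. Of all tested genes, 67 were then higher and 7842 lower with a median of -1.02, which applies to the later lists too. Against labelled anti-CTLA4, CD4 depletion showed 2 higher (Tnfrsf12a and Il1rap) and 4 lower (Tlr7, Tnfsf13b, Tnfrsf1b and Il1a), with a median of -0.66.

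In the signalling core, of 30 adaptors, ubiquitin ligases and kinases 5 rose and 2 fell against IgG, with a median of 0.14, 7 called in all beside 38.0% of all tested genes, and the median was -0.71 with the microglia markers set equal. Irak2, a kinase of the TLR and IL-1 receptor complex, rose by 1.19 (SE 0.17), Traf5 by 1.12 (SE 0.26), and Sharpin, part of the linear ubiquitin ligase, by 0.66 (SE 0.18). All 3 fell with CD4 depletion against labelled anti-CTLA4, by 0.79, 1.09 and 0.56, and no gene of the list rose. Btrc, which recognises the marked inhibitor for destruction, was lower against IgG, at -0.94 (SE 0.31).

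Of 17 other inhibitors 3 rose and 0 fell against IgG, with a median of 0.28, which was -0.59 with the microglia markers set equal. Nfkbid, another nuclear I-kappa-B protein, read 1.27 and 12.3 FPKM under IgG, 51.0 and 35.0 in the libraries labelled anti-CTLA4, and 15.3, 5.57 and 12.4 with CD4 depletion. Its rise against IgG was 2.98 log2 units (SE 0.78). Tnfaip8l2, an inhibitor of innate signalling, was even within groups, at 42.7 and 40.3, then 109 and 116, then 58.1, 53.2 and 55.4 FPKM. It rose by 1.42 (SE 0.14) against IgG and fell by 1.01 (SE 0.13) with CD4 depletion against labelled anti-CTLA4, where it was the only gene of this list called.

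Of 38 NF-kB target genes 10 rose and 2 fell against IgG, with a median of 0.59, and 2 rose and 3 fell with a median of -0.073 when the microglia markers were set equal. Ccl5, a chemokine for T cells, read 18.4 and 28.4 FPKM under IgG, 219 and 116 in the libraries labelled anti-CTLA4, and 26.1, 15.6 and 42.9 with CD4 depletion. Icam1, an adhesion molecule, read 51.4 and 31.7, then 86.4 and 91.8, then 35.2, 37.6 and 38.1 FPKM. Both rose against IgG, by 2.74 (SE 0.48) and 1.12 (SE 0.23), and fell with CD4 depletion against labelled anti-CTLA4, by 2.57 (SE 0.44) and 1.25 (SE 0.21). Birc3 and Ebi3 moved the same way, while Sod2, which encodes the mitochondrial superoxide dismutase, and Marcksl1 were lower against IgG and higher with CD4 depletion against labelled anti-CTLA4. In the latter comparison 3 target genes were higher and 5 lower, with a median of -0.43. For CD4 depletion against IgG no gene of the 4 lists passed. With the microglia markers set equal, the medians of all 4 lists for CD4 depletion against labelled anti-CTLA4 turned positive. They were 0.23, 0.64, 0.63 and 0.31 in the order above, all below the 0.97 of all tested genes. In these lists 3, 11, 7 and 8 genes were higher and 0, 0, 0 and 1 lower. Of all 13167 genes tested under that scaling, 8419 were higher and 96 lower. Without control IgG replicate 1 or labelled anti-CTLA4 replicate 2 no gene of these lists was called against IgG. Without CD4-depleted replicate 1, 10 ligands and receptors and 12 target genes were lower in CD4 depletion against labelled anti-CTLA4, where 4 and 5 had been.

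Some of the spread within groups ran through the target genes too. Il1b read 1.502 FPKM in control IgG replicate 1 and 77.9 in replicate 2, Ccl3 5.83 and 178, and the immediate early gene Fos 86.3 and 656. Rel, Nfkbia, Nfkbiz and Tnfaip3 were each lower in control IgG replicate 1 than in replicate 2, whereas Nfkb1, Nfkb2, Rela, Relb, Nfkbie and Bcl3 were each higher there. Summed over 22 immediate early and dissociation genes, the IgG libraries read 752 and 2796 FPKM, those labelled anti-CTLA4 4402 and 5094, and those with CD4 depletion 2164 to 2663. Of these genes 10 rose and 0 fell in the libraries labelled anti-CTLA4 against IgG, with a median of 1.64. Of all tested genes 9.29% were higher and 28.8% lower, with a median of -0.31. With the microglia markers set equal, 0 of the 22 rose and 1 fell, beside 67 higher and 7842 lower of all tested genes. The part of these 22 genes in the differences of Nfkbia, Nfkbiz and Tnfaip3 was not tested. Cxcl2, a neutrophil chemokine, read 268 FPKM in CD4-depleted replicate 1 and at most 2.66 in the other 6 libraries.

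The genes most alike in pattern were found by the root mean square difference of centred log2(FPKM + 1) over the 7 libraries, among 7661 genes with a mean of at least 5 FPKM. The nearest were Wasf2 for Nfkb1 (0.045), Mettl23 for Rela (0.046), Tpp1 for Relb (0.050), Mettl7a1 for Nfkbie (0.070) and C1galt1c1 for Nfkb2 (0.077), which also had Ltbr, the lymphotoxin beta receptor, at 0.083. Bcl3 was nearest to Klhl2 (0.10), Rel to Lrch4 (0.14) and Nfkbia to Sema4a (0.14), followed by the overlapping row Mir1198. Nfkbiz was nearest to the immediate early gene Nr4a1 (0.16), and Tnfaip3 to Slc31a2 and Ppp1r15a (both 0.25). A gene of small spread is near many others, so these distances are not comparable between genes of different range.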

How the data were processed

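FPKM values were deposited by the authors as 1 table for the 7 libraries. STAR, HOMER and DESeq2 were used on mm10, per the submitters' processing notes; versions are not given in the sources used here. HOMER counted over exons on both strands and kept 1 entry per gene, per the file headers. Columns were matched to samples by name. In the present work log2(FPKM + 1) was fitted with limma 3.58.1 in R 4.3.3: group means over all 7 libraries, moderation with a mean-variance trend, two-sided tests, Benjamini-Hochberg adjustment over 13028 genes and a threshold of 0.05. The pseudocount of 1 understates changes of low genes. The script was tested on simulated data. Depth was read from the low values: for transcripts of 200 to 800 bases and up to 20 reads, 100.0% of each library's 266 to 300 values were within 0.1 of a whole read. No count test was run. The 10 genes, the pathway and marker lists and the tests were chosen with earlier results of these data known. Ratios to Rela beyond those of Relb, Rel and Nfkbia were added after their values were seen. Named were the 10 genes, up to 4 genes per list, comparison and direction with the smallest p among those called (mean of at least 5 FPKM), the 2 nearest genes by likeness and set markers; Il1b, Ccl3, Cxcl2, Ifngr1, Ddx3y and the overlapping rows were named after their values were seen. Promoters came from RefSeq, and shared exon bases from GENCODE vM21. A planned comparison of protein sequences was not run. Alternatives changed the pseudocount, the filter, the scaling (median-of-ratios, quantile, microglia markers set equal), the groups fitted, the moderation and the replicate block, or left out each library in turn.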

Additional observations from a re-analysis of the deposited data

How the results depend on the processing

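For labelled anti-CTLA4 against IgG, 4957 genes were called. Scaling to the microglia markers called 7909, and leaving out 1 library gave 0 to 6075, with 0 without control IgG replicate 1 or labelled anti-CTLA4 replicate 2 and 691 without control IgG replicate 2. Of the 10 genes 4 were called, 1 with the microglia markers set equal and 0 to 6 with 1 library left out. For CD4 depletion against labelled anti-CTLA4, 3827 genes were called, 2477 without a filter, 8515 with the microglia markers set equal, and 0 to 5306 with 1 library left out: 0 without labelled anti-CTLA4 replicate 2, 1391 without CD4-depleted replicate 2 and 987 without CD4-depleted replicate 3. Of the 10 genes 2 were called, 1 without a filter, 6 after median-of-ratios scaling, 5 after quantile normalization, 1 with the microglia markers set equal and 0 to 3 with 1 library left out. For CD4 depletion against IgG, 0 genes were called under every setting run.

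With the microglia markers set equal, differences from IgG changed sign in the libraries labelled anti-CTLA4 for Nfkb1 (-0.16), Nfkb2 (-0.75), Rela (-0.79), Relb (-0.14) and Nfkbie (-0.30). Those of CD4 depletion against labelled anti-CTLA4 did so for Nfkb1 (0.23), Nfkb2 (0.78), Rel (0.058), Rela (0.72), Relb (0.34), Nfkbia (0.71) and Nfkbie (0.11). With 1 library left out, sign changed for Nfkb2 (-0.088 to 0.32) and Rela (-0.028 to 0.29) in labelled anti-CTLA4 against IgG, and for Nfkb2 (-0.25 to 0.097) and Nfkbia (-0.90 to 0.21) in CD4 depletion against labelled anti-CTLA4. Against IgG, CD4 depletion changed sign for Nfkb1 (-0.096 to 0.25), Nfkb2 (-0.16 to 0.24), Rela (-0.12 to 0.021) and Nfkbie (-0.37 to 0.0055). Over all member values under the alternatives, 395 of 477 kept direction and side of the threshold, 31 kept direction and lost the call, 23 gained it and 28 changed sign. The cause was not tested. The 477 include genes not called in the main fit, and all values of CD4 depletion against IgG, where no setting gave a call. Only a main-fit call can be lost, so all 31 of these losses fell on those calls. With the microglia markers set equal, Relb and Nfkbie against IgG also lost the call. So did Nfkbie for CD4 depletion against labelled anti-CTLA4. Their signs changed too, so they are counted among the 28 instead. The pooled 395 of 477 therefore does not show how well the calls held. Rel had no value with a minimum mean of 5 FPKM. Of the 20 nearest genes by pattern 16 were kept with a pseudocount of 0.1 and 19 after median-of-ratios scaling.

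Deviations of same-numbered libraries from their group means correlated at -0.125 between IgG and labelled anti-CTLA4. Between IgG and CD4 depletion they correlated at -0.181 and -0.205, and between the other groups at 0.0780 and 0.123. Different-numbered libraries correlated at -0.123 to 0.205. In a group of 2 libraries the deviations mirror each other, so these values cannot settle whether the replicate numbers pair the libraries. With the replicate number as a block, 2665 genes and 3 of the 10 were called for labelled anti-CTLA4 against IgG, and 0 genes for CD4 depletion against labelled anti-CTLA4, where Nfkbia differed by 0.0027. Under the block Nfkb2 differed by -0.055 between CD4 depletion and IgG. With 2 or 3 libraries per group, their number limits the precision.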
